A study of Mus musculus with 8 samples.

Results

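The genes described here are 47 that act in the G2 and M phases of the cell cycle, when a cell that has copied its DNA prepares for division and divides. They were given as a list of gene symbols, and each of the 47 was found among the 27998 genes of the count tables. Bone marrow Lin- c-Kit+ (LK) cells, a mixture of hematopoietic stem and progenitor cells, were sorted from C57Bl/6 wild-type mice aged 12 to 14 weeks, and LK CD150+ CD48- CD34- hematopoietic stem cells (HSCs) were added to them. Control mice had received 100 µl PBS, and treated mice had received 50000 IU of interferon alpha (IFNα) per 20 g of body weight under the skin, 3, 24 or 72 h before the cells were taken. The 4 mice of a time point were marked with hashtag antibodies and pooled in 1 library of 10x 3' single-cell RNA sequencing, so a time point and its library cannot be told apart. No mouse belonged to more than 1 time point.

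After filtering, 2474 control cells, 1661 cells at 3 h, 3462 cells at 24 h and 2449 cells at 72 h remained, and 3 cell barcodes occurred in a pair of libraries. Molecules were counted by unique molecular identifiers (UMIs). The kept cells of a mouse held between 1102706 and 26446327 UMIs, and control mouse 4, with 58 cells, stood apart from the other mice, which had 330 to 1240. Cells of the 3 h library were shallower, with a median of 12017 UMIs per cell against 18964.5 in control. Of the 16 mice, every one had UMIs of every member, and all 47 members passed the filter on low counts in the whole compartment and in each lineage tested.

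Entry into mitosis is driven by the kinase CDK1 with its B-type cyclins. The chromosomes are then condensed, attached to spindle microtubules at their kinetochores and watched over by the spindle checkpoint until the anaphase promoting complex, a ubiquitin ligase, releases them. Most of these genes are transcribed late in the cell cycle through CCAAT boxes, which bind NF-Y, and the cell cycle genes homology region (CHR), which binds the DREAM and MuvB complexes. In bone marrow, long-term HSCs rarely divide, whereas the progenitors below them cycle actively.

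Promoter sequences of RefSeq (GRCm38.p6, 250 bases before to 50 after the transcription start) were matched by symbol for 41 of the 47 members. Those of 4 members that changed by different amounts and of Hmgb2, which changed little, are printed as examples that hold both a CHR and a CCAAT match. Ube2c is read from chr2:164769679-164769978 on the plus strand, Cdk1 from chr10:69352863-69353162 on the minus strand, Ccnb2 from chr9:70421505-70421804 on the minus strand, Mki67 from chr7:135716330-135716629 on the minus strand and Hmgb2 from chr8:57511593-57511892 on the plus strand. Capitals mark matches on either strand. The CHR was searched as TTTGAA and, in a second form, as TTCGAA. For the NF-Y box the letters CCAAT were used. The E2F site was searched as TTTGGCGC and, in a second form, as TTTCGCGC. In Ube2c a pair of CCAAT matches on opposite strands overlap.
Ube2c: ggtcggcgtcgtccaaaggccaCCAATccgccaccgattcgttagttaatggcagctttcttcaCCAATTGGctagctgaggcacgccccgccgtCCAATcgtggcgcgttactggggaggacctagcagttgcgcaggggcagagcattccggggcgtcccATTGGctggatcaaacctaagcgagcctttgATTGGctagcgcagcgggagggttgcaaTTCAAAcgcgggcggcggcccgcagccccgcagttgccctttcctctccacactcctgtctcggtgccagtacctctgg
Cdk1: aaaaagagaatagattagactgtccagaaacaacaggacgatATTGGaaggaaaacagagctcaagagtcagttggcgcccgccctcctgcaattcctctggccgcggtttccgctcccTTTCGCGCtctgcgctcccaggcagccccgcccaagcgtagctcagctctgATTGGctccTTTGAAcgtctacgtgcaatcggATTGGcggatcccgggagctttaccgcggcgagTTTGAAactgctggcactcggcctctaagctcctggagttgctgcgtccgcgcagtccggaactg
Ccnb2: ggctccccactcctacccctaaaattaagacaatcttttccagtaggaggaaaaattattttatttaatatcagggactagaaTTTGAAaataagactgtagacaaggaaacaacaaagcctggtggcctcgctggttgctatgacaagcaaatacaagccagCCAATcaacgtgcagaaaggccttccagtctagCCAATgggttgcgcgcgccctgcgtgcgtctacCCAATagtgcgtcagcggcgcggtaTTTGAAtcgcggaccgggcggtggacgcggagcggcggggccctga
Mki67: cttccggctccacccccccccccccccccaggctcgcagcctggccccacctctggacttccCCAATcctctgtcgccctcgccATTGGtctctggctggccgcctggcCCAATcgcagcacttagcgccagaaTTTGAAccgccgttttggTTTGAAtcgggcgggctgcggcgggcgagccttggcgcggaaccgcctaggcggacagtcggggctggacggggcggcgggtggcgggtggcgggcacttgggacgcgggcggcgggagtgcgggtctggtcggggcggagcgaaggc
Hmgb2: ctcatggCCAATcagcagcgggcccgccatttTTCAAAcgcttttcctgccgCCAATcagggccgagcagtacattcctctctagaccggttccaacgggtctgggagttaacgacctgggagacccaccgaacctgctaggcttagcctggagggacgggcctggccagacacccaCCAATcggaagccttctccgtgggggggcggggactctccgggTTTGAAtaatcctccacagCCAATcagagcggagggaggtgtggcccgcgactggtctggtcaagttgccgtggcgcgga

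A CHR was found in the promoters of 33 of the 41 matched members (80.5%), against 21.7% of the 27025 genes with a promoter in the same table. CCAAT was likewise found in 33 members (80.5%), against 41.1% of genes, and both motifs stood in the same promoter in 28 members (68.3%), against 8.6%. The longer E2F motif matched in 2 members, Cdk1 and Ncapd2 (4.9%, against 0.9% of genes). Hmgb2 and Mki67 each held both a CHR and a CCAAT box, although their RNA levels took different courses after IFNα. Birc5, which was lower at every time point, had no match of any motif searched. Kif2c, which was lower at 3 and 72 h, had a CHR and no CCAAT in its window. That window (chr4:117178723-117179022, minus strand) lies inside the annotated gene (117159639 to 117182639). The outermost start of Kif2c was therefore not searched. These matches describe the letters of the windows only.

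In the whole compartment, most members had fallen at every time point after IFNα. Of the 47, 35 were lower at 3 h, 31 at 24 h and 42 at 72 h than in control mice (edgeR quasi-likelihood test on counts summed per mouse, Benjamini-Hochberg adjusted p under 0.05 over all 12042 genes tested). None was higher. Of all genes tested, 19.2% were lower and 19.7% higher at 3 h, 13.8% lower and 14.5% higher at 24 h, and 18.5% lower and 18.9% higher at 72 h. The median log2 fold change of the members was -0.43 at 3 h, -0.28 at 24 h and -0.47 at 72 h, whereas that of all genes was -0.03, 0.00 and 0.02. All 4 treated mice lay below all 4 control mice for 26 members at 3 h, 26 at 24 h and 36 at 72 h, as they did for 13.1%, 11.1% and 14.7% of all genes tested. Few changes were large: only Ube2c, at 72 h, was called with a log2 fold change beyond -1, where 1.68%, 0.756% and 1.16% of all genes were called lower beyond that size at 3, 24 and 72 h. Without a composition correction (library size alone in place of TMM factors), the median of all genes at 3 h moved to -0.18. The share of higher genes among all called fell from 50.7% to 25.6%. Then 43 members were lower, beside 4632 of all 12042 genes.

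Within a compartment sum, fewer cells in mitosis and less RNA per mitotic cell cannot be told apart. The makeup of the sorted cells also moved. The HSC-like share of a mouse's cells was 23.3% ± 1.85 (SD, n = 4) in control mice and 36.4% ± 4.92, 29.2% ± 3.00 and 34.1% ± 0.96 after 3, 24 and 72 h. That of myeloid progenitor-like cells was 27.3% ± 2.42, 15.2% ± 3.17, 18.5% ± 1.87 and 14.0% ± 2.55. Since sorted HSCs had been added to the LK cells, these shares depend in part on the mixing, and a shift in the marrow was not separated from it. With the 5 lineages tested combined at fixed weights taken from control, the members' median was -0.54 at 3 h, -0.29 at 24 h and -0.39 at 72 h, against -0.55, -0.28 and -0.46 on the same scale for the cells as sorted. On that scale the median of all genes was -0.20, -0.04 and -0.05 with fixed weights and -0.16, -0.01 and 0.00 as sorted. Control mouse 4 was left out of both. The cells as sorted also held classes outside the 5 lineages, so the 2 values differ in cells as well as in weights.

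**Figure D1:**
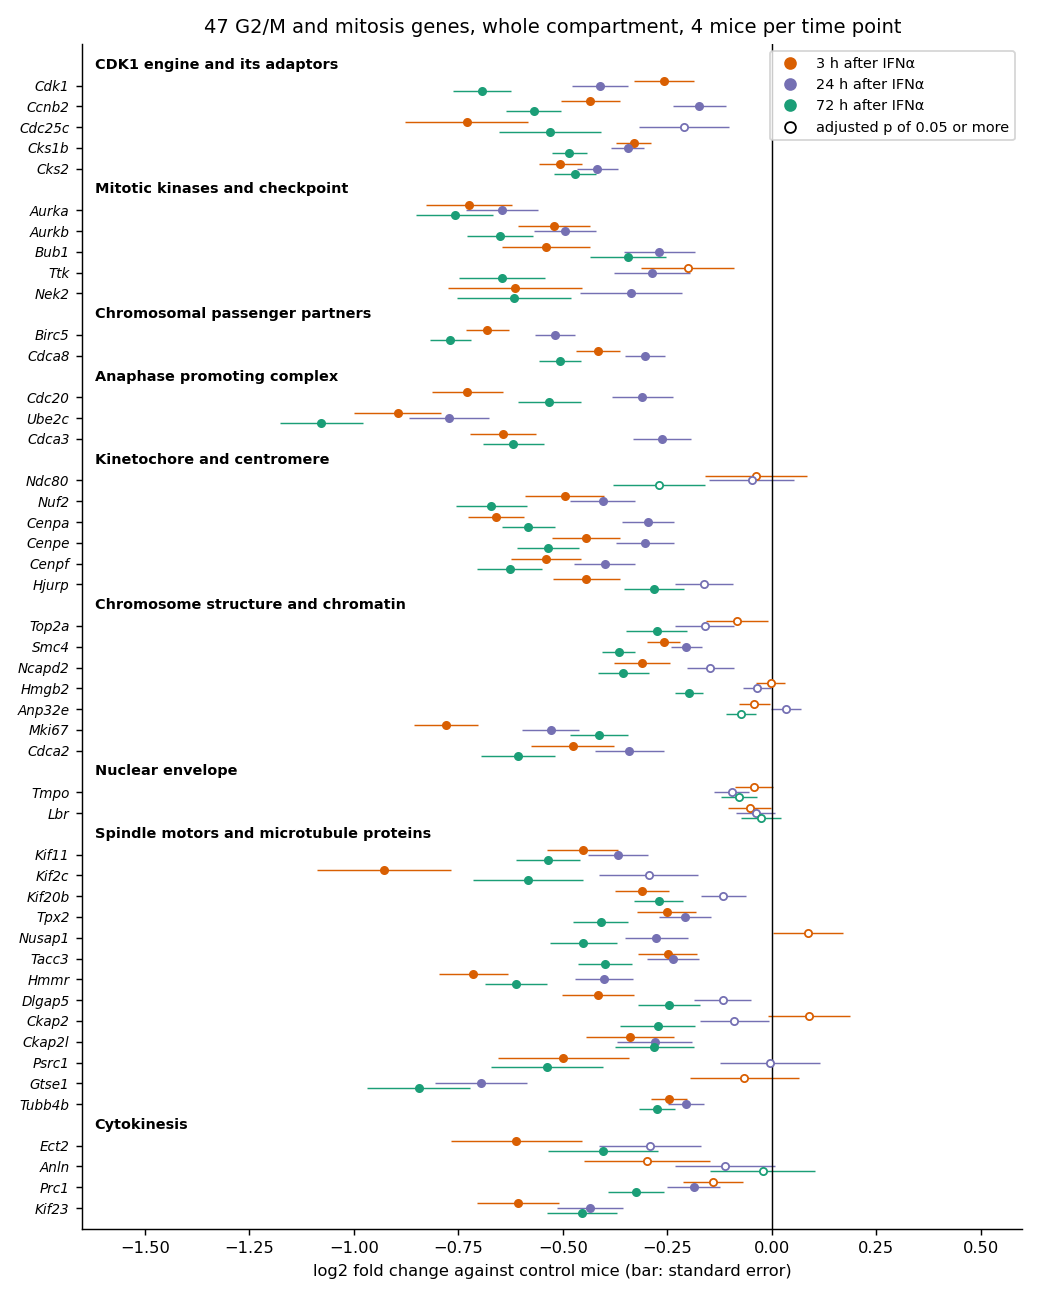
Log2 fold change of each of the 47 members against control in the whole compartment, by role, with standard errors, at 3, 24 and 72 h (n = 4 mice each). Filled points have an adjusted p under 0.05. They lie left of 0 for 35, 31 and 42 members, and open points include both nuclear envelope genes at every time point.

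The core of the CDK1 engine fell, with 5 of its 5 members lower at 3 h, 4 at 24 h and 5 at 72 h. Cdk1, the kinase itself, measured 112, 119, 112 and 95.7 CPM (TMM-scaled counts relative to all UMIs of a mouse) in the 4 control mice, 91.7, 88.1, 89.7 and 107 at 3 h, 77.6, 81.4, 91.1 and 88.2 at 24 h, and 64.3, 77.5, 65.0 and 72.4 at 72 h. At 3 h, 1 mouse still lay within the control range, and by 24 h every treated mouse was below it. The log2 fold change went from -0.26 ± 0.07 (SE) at 3 h (adjusted p = 0.00697) through -0.41 ± 0.07 (8.73e-05) to -0.69 ± 0.07 at 72 h (1.12e-07). Ccnb2, a cyclin partner of CDK1, took another course, with 95.6, 110.5, 109 and 98.3 CPM in control, 77.0, 85.7, 70.2 and 77.9 at 3 h, 99.5, 93.0, 82.0 and 95.5 at 24 h, and 64.8, 71.9, 74.3 and 70.6 at 72 h. Its mice overlapped control at 24 h, where the change was -0.17 ± 0.06 (adjusted p = 0.0456), and not at 3 h (-0.43) or 72 h (-0.57). The CDK adaptors Cks1b (-0.33, -0.35 and -0.48 at 3, 24 and 72 h) and Cks2 (-0.51, -0.42 and -0.47) were lower at each time point. Cdc25c, a phosphatase that activates CDK1, was lower at 3 h (-0.73) and 72 h (-0.53).

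All 3 genes tied to the anaphase promoting complex and its timing fell at every time point, and Ube2c, its ubiquitin-conjugating enzyme, had the lowest log2 fold change of all members at 24 and 72 h. Ube2c measured 170.3, 212, 187 and 138 CPM in control mice, 88.6, 125, 78.8 and 107 at 3 h, 110.2, 104, 112 and 104 at 24 h, and 85.9, 93.8, 84.1 and 84.8 at 72 h. Every treated mouse lay below every control mouse at each time point, with changes of -0.89 ± 0.10 (adjusted p = 3.48e-07), -0.77 ± 0.10 (2.8e-06) and -1.08 ± 0.10 (2.86e-08). Cdc20, an activator of the complex, was at 60.4, 72.7, 66.6 and 48.7 CPM in control, 41.1, 35.8, 38.3 and 42.4 at 3 h, 53.0, 53.6, 45.8 and 57.4 at 24 h, and 46.0, 43.4, 46.1 and 44.6 at 72 h. At 24 h, 3 of the 4 mice were within the control range, and the changes were -0.73 ± 0.08, -0.31 ± 0.07 and -0.53 ± 0.08 (adjusted p = 3.58e-07, 0.0028 and 1.22e-05). Cdca3, a trigger of mitotic entry, followed with -0.64, -0.26 and -0.62. Ube2c and Cdc20 overlap other genes on the chromosome (Tnnc2 and Elovl1), as do 11 members in all, with strands not compared. Whether the overlaps affected the counts was not tested.

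The mitotic kinases and the chromosomal passenger proteins, which correct wrong attachments of chromosomes to the spindle, fell together. Of 5 kinase and checkpoint genes, 4 were lower at 3 h and 5 at 24 and 72 h, and both passenger partners (Birc5 and Cdca8) were lower each time. Aurkb, the passenger kinase, measured 57.2, 58.5, 52.6 and 46.98 CPM in control, 36.5, 34.0, 37.7 and 46.4 at 3 h, 34.96, 37.1, 43.4 and 41.9 at 24 h, and 37.3, 36.0, 33.2 and 34.8 at 72 h. Its treated mice all lay below the control mice, with changes of -0.52 ± 0.09, -0.49 ± 0.07 and -0.65 ± 0.08 (adjusted p = 4.16e-05, 3.65e-05 and 1.41e-06). Birc5 (survivin), which anchors the complex, measured 168, 179.6, 172 and 198 CPM in control, 114, 107, 108 and 112 at 3 h, 117, 122, 124 and 128 at 24 h, and 107, 111, 98.1 and 97.1 at 72 h. The highest treated mouse was at 128 CPM and the lowest control mouse at 168, and the changes were -0.68 ± 0.05, -0.52 ± 0.05 and -0.77 ± 0.05 (adjusted p = 3.42e-10, 3.58e-08 and 7.52e-11). Aurka, the centrosome kinase, fell by 0.72, 0.64 and 0.76 on the log2 scale. The checkpoint kinase Ttk was at -0.20 at 3 h (adjusted p = 0.16) and had fallen by 0.29 at 24 h and 0.65 at 72 h.

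Of the 6 kinetochore and centromere genes, 5 were lower at 3 h, 4 at 24 h and 5 at 72 h. Cenpa, the centromeric histone, measured 158, 187, 181 and 205 CPM in control, 123, 118, 103 and 110.2 at 3 h, 157, 145, 134 and 147 at 24 h, and 122, 121, 122 and 112 at 72 h. The 24 h mice came closest to control, 157 against a lowest control value of 158 CPM, and the changes were -0.66 ± 0.07, -0.30 ± 0.06 and -0.58 ± 0.06 (adjusted p = 4.7e-08, 0.00115 and 3.78e-07). The kinetochore proteins Cenpe (-0.44, -0.30 and -0.54) and Cenpf (-0.54, -0.40 and -0.63) were lower each time. Ndc80, the microtubule-binding kinetochore subunit, did not pass (-0.04, -0.05 and -0.27), although Nuf2, its partner in the same complex, was lower each time (-0.50, -0.40 and -0.67).

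Chromosome and chromatin genes were mixed, with 4 of 7 lower at 3 h, 3 at 24 h and 6 at 72 h. Mki67, the chromosome coat protein Ki-67 and a marker of cycling cells, measured 121, 131, 127 and 104 CPM in control, 71.1, 71.3, 66.5 and 81.2 at 3 h, 83.4, 78.8, 90.1 and 92.0 at 24 h, and 97.2, 92.8, 81.2 and 101 at 72 h. Its lowest levels were those of the 3 h mice, and each treated mouse was below each control mouse, with changes of -0.78 ± 0.08, -0.53 ± 0.07 and -0.41 ± 0.07 (adjusted p = 2.17e-08, 5.22e-06 and 8.57e-05). Top2a, the topoisomerase that untangles sister chromatids, measured 214, 230.2, 217 and 198 CPM in control, 172, 199, 212 and 236 at 3 h, 177, 190.3, 214 and 197 at 24 h, and 179, 197, 165 and 178 at 72 h. The groups overlapped at 3 h (-0.08 ± 0.07, adjusted p = 0.397) and 24 h (-0.16 ± 0.07, 0.0971), and Top2a was lower at 72 h (-0.28 ± 0.07, 0.00475). Hmgb2, an abundant chromatin protein that is also made outside mitosis, was at 1122, 1215, 1204 and 1225 CPM in control, 1178, 1137, 1178 and 1256 at 3 h, 1148, 1135, 1148 and 1214 at 24 h, and 996, 1033, 1066 and 1054 at 72 h. Control, 3 h and 24 h mice could not be separated for Hmgb2, and the 72 h mice were lower (-0.20 ± 0.03, adjusted p = 0.000119). The condensin subunit Smc4 was lower each time (-0.26, -0.20 and -0.37), and the histone chaperone Anp32e did not pass at any time (-0.04, 0.03 and -0.07).

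Among the 13 spindle motors and microtubule proteins, 10 were lower at 3 h, 8 at 24 h and 13 at 72 h. Kif2c, a motor that takes microtubules apart at centromeres, had the lowest log2 fold change of all members at 3 h (-0.93 ± 0.16) and measured -0.29 at 24 h and -0.58 at 72 h. Gtse1, a microtubule-binding protein, was at -0.07 at 3 h and had fallen by 0.70 at 24 h and 0.85 at 72 h. Nusap1, which bundles spindle microtubules, went from 0.09 at 3 h to -0.28 and -0.45. Of 4 cytokinesis genes, 2 were lower at 3 h, 2 at 24 h and 3 at 72 h, among them Kif23 of the central spindle (-0.61, -0.43 and -0.45). The nuclear envelope genes Tmpo and Lbr did not pass at any time point, with log2 fold changes between -0.10 and -0.03. Cdc25c, Kif2c, Gtse1 and the others named here without values for every mouse were chosen after their values were seen.

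**Figure D2:**
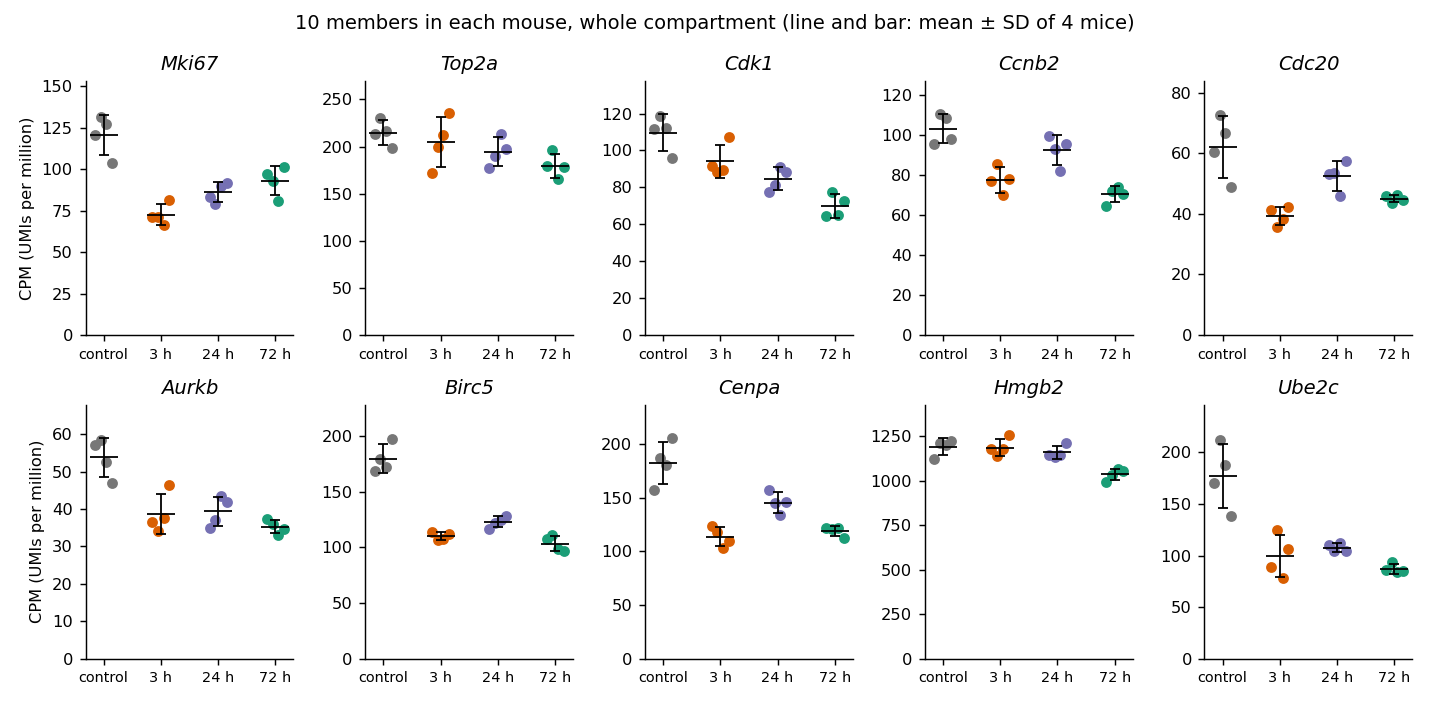
CPM of 10 members in each mouse of the whole compartment, with mean ± SD of 4 mice per time point. Ube2c and Birc5 of every treated mouse lie below every control mouse, whereas Hmgb2 of the 3 h mice (1137 to 1256 CPM) overlaps control (1122 to 1225 CPM).

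The members followed more than 1 time course. Of the 47, 27 were lower at all 3 time points, 8 at 3 and 72 h but not at 24 h (Cdc25c, Dlgap5, Ect2, Hjurp, Kif20b, Kif2c, Ncapd2 and Psrc1), 4 at 24 and 72 h but not at 3 h (Gtse1, Nusap1, Prc1 and Ttk), and 3 at 72 h alone (Ckap2, Hmgb2 and Top2a). The other 5 (Anln, Anp32e, Lbr, Ndc80 and Tmpo) passed at no time. In the test of 24 h against 3 h itself, 13 members were higher (12.3% of all genes) and 2, Gtse1 and Nusap1, were lower (16.3% of all genes). Kif2c was higher at 24 h by 0.63, Cdc25c by 0.52, Psrc1 by 0.49 and Cdc20 by 0.42 on the log2 scale. At 72 h, 15 members were lower than at 24 h (5.38% of all genes), and 5 of them, Birc5, Ccnb2, Cdca3, Cenpa and Psrc1, had been higher at 24 h than at 3 h. Mki67 was not among the 15: it was higher at 24 h than at 3 h by 0.25 (adjusted p = 0.014) and its change from 24 h to 72 h was 0.12 (0.325). With library size alone, 31 members were higher at 24 h than at 3 h, beside 3752 of all 12042 genes. The share of higher genes among all called went from 43.0% to 76.2%. Leaving out 3 h mouse 3 left 8 members higher at 24 h than at 3 h, and leaving out 24 h mouse 4 or 72 h mouse 1 left 9 lower at 72 h than at 24 h.

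Lineages were built from control cells without the 47 members and other cell cycle genes, and carried over to treated cells. The summed level of 12 HSC markers was 1009 to 1597 CPM in the HSC-like cells of a mouse and at most 611 CPM in the other 4 lineages tested. Markers of the myeloid, erythroid and MK progenitors were likewise highest in their own classes, at no less than 27089, 6512 and 2260 CPM, against at most 7501, 1632 and 466 CPM elsewhere. The same marker lists had named the control clusters, so these levels describe the classes and are no independent check of their names. The LMPP markers did not separate LMPP-like from HSC-like cells: their medians over mice were 983 and 941 CPM in control, 693 and 739 CPM at 3 h, 974 and 874 CPM at 24 h, and 826 and 862 CPM at 72 h. The LMPP-like class was led by Dntt, Flt3 and Cd34 and had HSC markers at 147 to 397 CPM. Control mouse 4 had too few cells (under 10) in the LMPP-like (lymphoid-primed multipotent progenitor), erythroid and megakaryocyte (MK) progenitor-like classes, where 3 control mice remained. The MK class shares genes with stem cells, with HSC markers at 454 to 611 CPM.

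In HSC-like cells, 11 members were lower at 3 h, 3 at 24 h and 26 at 72 h, and none was higher (0 at an unadjusted p under 0.05 as well). Of all 10358 genes tested, 8.54% were lower and 12.9% higher at 3 h, 1.74% lower and 4.02% higher at 24 h, and 2.58% lower and 4.06% higher at 72 h. The members' median log2 fold change was -0.38, -0.19 and -0.63. With library size alone, 29, 3 and 33 members were lower, beside 2799, 262 and 545 of all 10358 genes. The share of higher genes among all called went from 60.1%, 69.8% and 61.2% to 23.9%, 56.1% and 35.6%. Mki67, with the lowest called value at 3 h, measured 93.7, 123, 162 and 19.3 CPM in the 4 control mice, 59.8, 64.9, 60.9 and 61.8 at 3 h, 84.3, 88.1, 101 and 76.4 at 24 h, and 59.9, 68.2, 67.9 and 98.95 at 72 h. Control mouse 4, with 14 HSC-like cells, lay below all treated mice and the other controls above the 3 h mice, and the changes were -0.99 ± 0.18 (adjusted p = 8.81e-05), -0.49 ± 0.15 (0.0463) and -0.75 ± 0.16 (0.002). Cenpf measured 63.9, 91.0, 129.6 and 19.3 CPM in control and 31.6, 42.0, 45.0 and 55.4 at 72 h, a fall of 1.11 ± 0.20 (adjusted p = 0.000216). Cenpe was one of 2 members whose 72 h mice (22.2, 24.2, 20.2 and 22.4 CPM) all lay below the control mice (31.4, 42.7, 60.4 and 25.7), with a fall of 1.01 ± 0.18 (0.000327). At 72 h, 3 members (Cenpf, Ttk and Cenpe) were lower by more than 1 on the log2 scale, against 0.367% of all genes.

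These counts in HSC-like cells rested on the spread of the control mice and on how the class was drawn. All 4 treated mice lay below all control mice for 0 members at 3 h, 1 at 24 h and 2 at 72 h, where 6.25%, 3.84% and 3.86% of all genes separated in this way. Leaving out control mouse 3, whose levels were highest, left 2, 0 and 6 members lower with medians of -0.09, 0.07 and -0.39. Leaving out control mouse 1 gave 19, 6 and 34. Leaving out 3 h mouse 1, 3 or 4 left 7, 6 and 7 lower at 3 h, and 24 h mouse 2 or 4 left 0 lower at 24 h. With clusters built from all variable genes, cell cycle genes included, the members themselves took part in drawing the classes. An unnamed cluster of that clustering had 8 members among its 10 leading genes (Nusap1, Prc1, Ube2c, Cenpf, Mki67, Top2a, Hmmr and Kif11), and it took up 66 of the 572 control HSC-like cells (11.5%) and 7.9%, 11.2% and 6.1% of those at 3, 24 and 72 h. The LMPP-like class of that clustering took up 13.6% of the control HSC-like cells and 4.2%, 5.9% and 4.4% of those at 3, 24 and 72 h. Which of these moves shifted the medians was not tested. The HSC-like class of that clustering, which the members helped to draw, serves as a description only. It held 424 control cells, 40 of the 47 members passed the filter on low counts, and their medians were 0.33, 0.14 and 0.07 at the 3 times. At 3 h, 7 members were higher (Hmgb2, Nusap1, Tpx2, Top2a, Tacc3, Ccnb2 and Kif20b) and 1 was lower, beside 13.1% and 7.01% of genes. Hmgb2 was the only higher member at 24 h, when 3.95% of all genes rose, and again at 72 h, when 3.33% did. No member was lower at either time, although 1.37% of all genes were at 24 h and 1.6% were by 72 h. Cluster 10, which was led by transcripts derived from ribosomal RNA, made up 14.0% of HSC-like control cells and 5.6%, 5.8% and 4.3% at 3, 24 and 72 h, and its part in the result was examined by leaving it out, which left 1 member lower at 24 h and kept the other counts within 1.5 times.

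**Figure D3:**
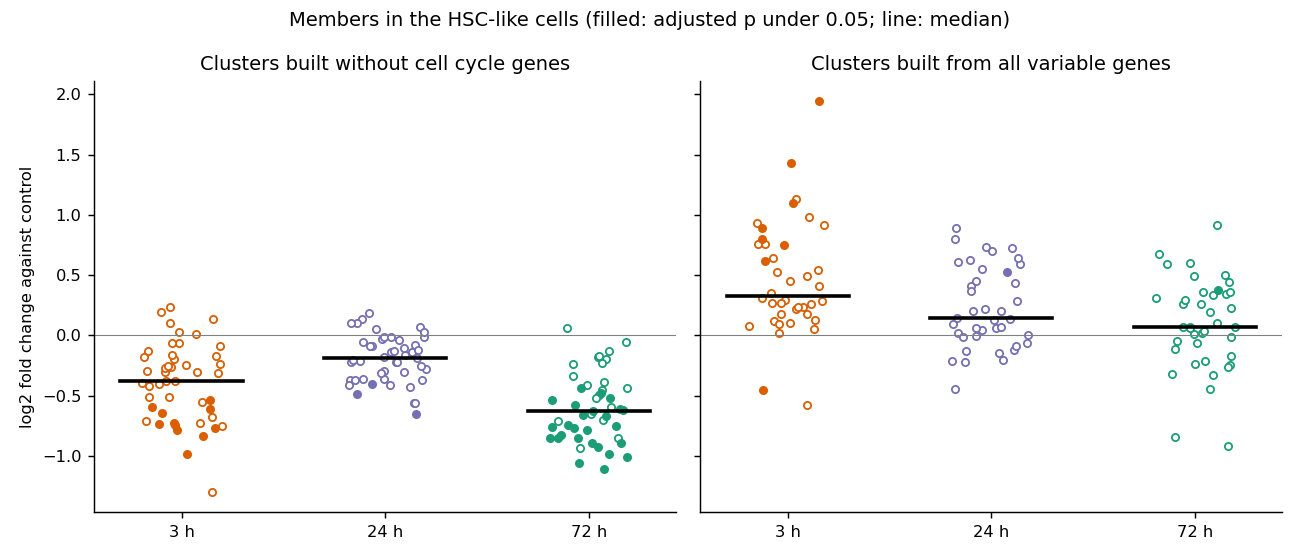
Log2 fold change of the members in HSC-like cells against control. Clusters were built without cell cycle genes (left, 47 members) or from all variable genes (right, 40 members). Members helped to draw the class on the right. Filled points have an adjusted p under 0.05, and lines are medians. The medians lie at -0.38, -0.19 and -0.63 on the left and at 0.33, 0.14 and 0.07 on the right.

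LMPP-like cells had the most members lower at 3 h, 29 of 47, followed by 24 at 24 h and 24 at 72 h, and none higher. Of all genes tested, 6.38% were lower and 10.6% higher at 3 h, 2.95% and 4.73% at 24 h, and 2.46% and 3.78% at 72 h. Under library size alone the share of higher genes among all called went from 62.4% to 32.6% at 3 h and from 60.6% to 39.3% at 72 h. The medians were -0.64, -0.44 and -0.54, and 8, 2 and 2 members were lower by more than 1 on the log2 scale, against 1.22%, 0.413% and 0.423% of genes. Ube2c measured 207, 304 and 186 CPM in 3 control mice, 89.0, 105, 41.1 and 109 at 3 h, 70.5, 90.1, 97.3 and 77.7 at 24 h, and 95.9, 93.6, 93.8 and 70.4 at 72 h. No treated mouse reached the control range, and the changes were -1.52 ± 0.19, -1.47 ± 0.15 and -1.39 ± 0.16 (adjusted p = 9.89e-08, 6.37e-09 and 8.47e-08). Psrc1, a spindle protein, measured 12.0, 20.2 and 15.5 CPM in control and 3.76, 10.3, 2.28 and 7.42 at 3 h, a fall of 1.59 ± 0.37 (0.00214). Mki67 measured 110.3, 178 and 115 CPM in control and 52.1, 74.0, 75.3 and 74.3 at 24 h, a fall of 0.95 ± 0.12 (1.35e-06). Control mouse 2 had the highest value of each of these 3 genes, and without it 17, 11 and 10 members were lower. Without 3 h mouse 3, 19 were lower at 3 h.

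In myeloid progenitor-like cells 23 members were lower at 3 h, 21 at 24 h and 18 at 72 h, and none was higher. Of all genes tested, 8.72% were lower and 14.4% higher at 3 h, 5.18% and 9.45% at 24 h, and 5.13% and 8.36% at 72 h. Scaled by library size alone, the share of higher genes among all called went from 62.2%, 64.6% and 61.9% to 28.4%, 39.6% and 35.8%. The medians were -0.33, -0.27 and -0.25, and 2 members at 3 h (Ube2c and Kif2c) and 2 at 72 h (Ube2c and Kif11) were lower by more than 1 on the log2 scale, against 0.696% and 0.395% of genes. Ube2c measured 92.4, 102, 73.9 and 117 CPM in control, 48.0, 30.4, 37.8 and 29.9 at 3 h, 44.7, 60.6, 45.5 and 61.2 at 24 h, and 64.1, 33.1, 33.0 and 30.2 at 72 h. Treated and control mice did not overlap, and the changes were -1.29 ± 0.18, -0.73 ± 0.12 and -1.12 ± 0.15 (adjusted p = 1.02e-06, 4.16e-05 and 1.5e-06). Aurkb measured 59.7, 56.2, 52.7 and 71.0 CPM in control and 28.6, 28.5, 34.9 and 36.6 at 24 h, a fall of 0.82 ± 0.09 (5.19e-08). Kif11, the motor that pushes spindle poles apart, measured 24.6, 32.0, 24.3 and 31.8 CPM in control and 13.4, 19.2, 11.2 and 10.7 at 72 h, a fall of 1.02 ± 0.17 (3.6e-05). Cluster 9 held 174 of these 697 cells in control and 6.9%, 8.6% and 9.9% of them at 3, 24 and 72 h, and without it 25, 22 and 22 members were lower, while Ccnb2 was higher at 24 h (0.24, adjusted p = 0.0275, against 0.15 and 0.168 with all cells of the class).

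In erythroid progenitor-like cells, 10 members were lower at 3 h, 13 at 24 h and 3 at 72 h, and none was higher. Of all genes tested, 3.95% were lower and 8.91% higher at 3 h, 3.93% and 5.17% at 24 h, and 2.08% and 3.19% at 72 h. The medians were -0.31, -0.30 and -0.15. With library size alone, 22 members were lower at 3 h and 7 at 72 h, beside 1427 and 398 of all 8224 genes. The share of higher genes among all called went from 69.3% to 27.1% and from 60.5% to 35.8%. Ube2c measured 260.4, 294 and 269.7 CPM in control, 111, 203, 188 and 120.3 at 3 h, 148, 132, 122 and 92.7 at 24 h, and 167, 195, 205 and 137 at 72 h. All treated mice were below the control mice, and at 24 h Ube2c was the member lower by more than 1 on the log2 scale (-1.17 ± 0.13, adjusted p = 2.12e-07; 0.474% of genes). The other members lower at 72 h were Cdk1 (-0.46 ± 0.10, 0.00563) and Birc5 (-0.45 ± 0.12, 0.0286). At 24 h the count was 6 without control mouse 3 and 7 without control mouse 1, 24 h mouse 2 or 24 h mouse 4, and at 72 h it was 1 without control mouse 1 or 3 and 5 without control mouse 2 or 3 h mouse 4.

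In MK progenitor-like cells 14 members were lower at 72 h, 4 at 24 h and 2 at 3 h, and 3 were higher at 3 h (6.38% of the members). Of all genes tested, 8.55% were higher and 2.99% lower at 3 h, 3.15% higher and 1.23% lower at 24 h, and 3.52% higher and 2.14% lower at 72 h. The medians were 0.05, -0.17 and -0.37. When scaled by library size alone, 2 members were higher and 3 lower at 3 h, beside 572 and 1115 of all 9011 genes. The share of higher genes among all called went from 74.1%, 71.9% and 62.2% to 33.9%, 52.0% and 44.2%. Hmgb2 measured 1103, 1039.7 and 1110.5 CPM in 3 control mice and 1526, 1471, 1447 and 1518 at 3 h. Top2a measured 204, 228 and 255 CPM in control and 279.9, 310.4, 326 and 349 at 3 h. Both genes were above control in every 3 h mouse, by 0.46 ± 0.06 (adjusted p = 2.61e-08) and 0.48 ± 0.10 (0.000415), and Nusap1 was above control in 3 of 4 (0.44 ± 0.14, 0.0335). Only 1 member was higher after thinning cells to 5000 UMIs, with clusters from all variable genes or with label transfer without correction. Ube2c went the other way, with 235, 211 and 212 CPM in control, 198, 164, 82.9 and 189.7 at 3 h, 134, 119, 183 and 136 at 24 h, and 101, 59.6, 94.1 and 82.8 at 72 h. Its changes were -0.51 ± 0.15 (0.0179), -0.65 ± 0.13 (0.000415) and -1.35 ± 0.14 (1.41e-09), and at 72 h it was the member lower by more than 1 on the log2 scale (0.322% of genes). The median at 3 h turned to -0.11 with library size alone and to -0.02 without 3 h mouse 4, so that no direction can be given for the members as a whole at that time. Without 3 h mouse 3, 0 were lower at 3 h, without control mouse 1 or 3 it was 1, and without control mouse 3, 1 was lower at 24 h.

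**Figure D4:**
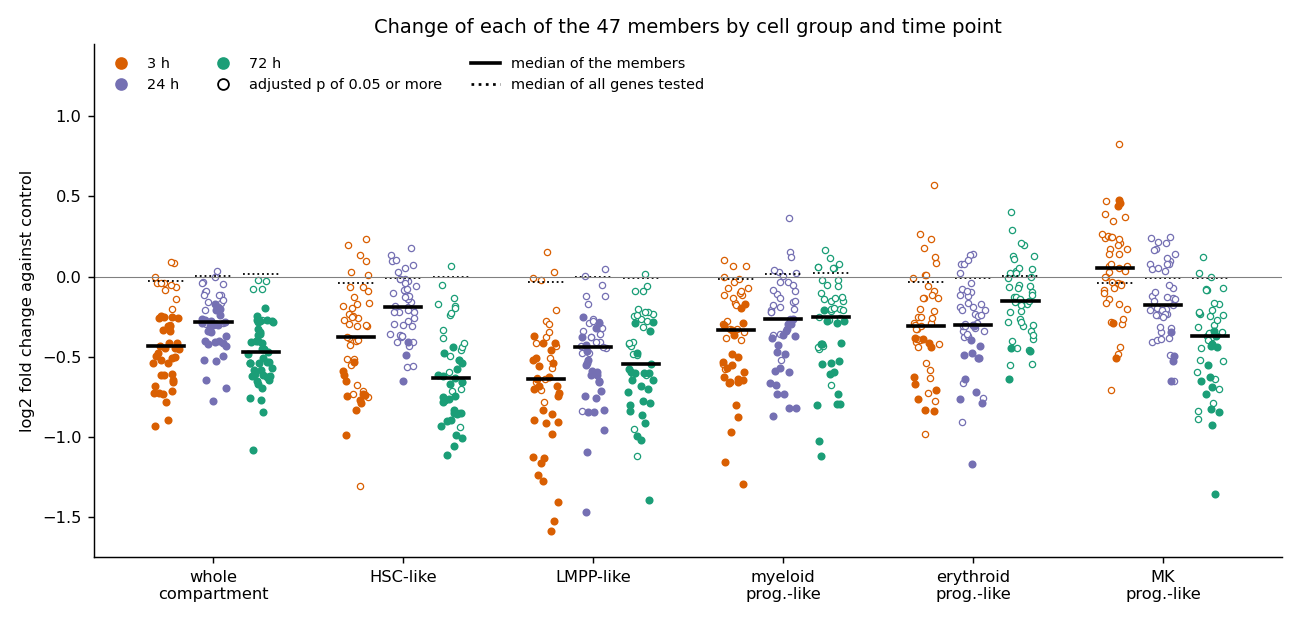
Log2 fold change of each of the 47 members against control by cell group and time point (filled, adjusted p under 0.05; solid line, median of the members; dotted line, median of all genes tested). The members' medians lie below those of all genes except in MK progenitor-like cells at 3 h (0.05).

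Across the 5 lineages, Birc5, Cdk1 and Ube2c were lower in all 5 at 72 h, as were 0.435% of the 7819 genes tested in each lineage. None of them was called in all 5 with clusters from all variable genes or without control mouse 3, and only 1 was with DESeq2 (Cdk1), with thinned cells, without control mouse 1 or without 72 h mouse 1 (Ube2c in each). At 3 h, Cdca3, Cks2, Hmmr, Mki67 and Ube2c were lower in 4, and at 24 h Birc5, Cenpf, Cks2, Mki67 and Ube2c were (0.882% and 0.307% of genes). At the other end, 15 members at 3 h, 17 at 24 h and 14 at 72 h were lower in no lineage (80.5%, 90.1% and 90.7% of genes), and Anln, Anp32e, Cdc25c, Ect2, Hmgb2, Lbr and Tacc3 were among these at each time. Cdc25c, Ect2, Hmgb2 and Tacc3 were nevertheless called at 1 or more time points in the sums over the whole compartment.

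Whether a lineage responded differently was tested on the within-mouse difference between HSC-like cells and another lineage (limma, adjusted over all genes). Against LMPP-like cells, the change of 2 members at 3 h was more positive in HSC-like cells, where 1.17% of genes differed. They were Ube2c, by 1.20 ± 0.28 (adjusted p = 0.0313), and Tubb4b, a tubulin, by 0.45 ± 0.11 (0.0394). A more positive change here is a difference between lineages, and does not say whether a member rose or fell in HSC-like cells. At an unadjusted p under 0.05, 14 members were more positive at 3 h, beside 7.96% of all genes. At 24 and 72 h limma called 0 members against LMPP-like cells, beside 0.0321% and 0.0% of genes. At an unadjusted p under 0.05 the change was more positive in HSC-like cells for 9 members at 24 h and 1 at 72 h (2.25% and 1.93% of genes). It was more negative for 0 and 1 (2.39% and 1.53%). Against myeloid progenitor-like cells limma called 0 members at any time, beside 1.57%, 0.634% and 0.0% of genes at 3, 24 and 72 h. Unadjusted, 7, 9 and 0 members were more positive (9.3%, 3.64% and 3.78% of genes) and 0, 0 and 1 more negative (7.46%, 5.03% and 4.52%) in HSC-like cells. The myeloid comparison kept control mouse 4, with 14 HSC-like and 14 myeloid progenitor-like cells, at the same weight as the other mice. The members' median difference there was 0.58, 0.71 and 0.34 at 3, 24 and 72 h. Without that mouse it was 0.02, 0.16 and -0.27, and 1 member was called more negative at 72 h. Against erythroid progenitor-like cells limma called 0 members as well, beside 1.52%, 0.136% and 0.0% of genes. Unadjusted, 4, 3 and 0 members were more positive (9.12%, 3.24% and 3.36% of genes) and 1, 0 and 14 more negative (6.41%, 3.8% and 2.59%) in HSC-like cells. The 2 calls were lost without control mouse 1, control mouse 2 or 3 h mouse 2, 1 remained without 3 h mouse 3, 24 h mouse 3 or 72 h mouse 3, and without 3 h mouse 4 there were 4.

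Single cells were thinned to 5000 UMIs each, and the UMIs of the 47 members were summed. Cells with at least 25 member UMIs made up 31.0% ± 1.29 (SD, n = 4) of the cells of a control mouse and 20.3% ± 1.10, 25.3% ± 1.00 and 20.8% ± 0.44 after 3, 24 and 72 h. This measure is a description without a test. The ranges of the 4 groups did not overlap between control (29.3% to 32.3%) and any treated group. In such cells the mean sum was 49.9 ± 2.98 UMIs in control and 46.0 ± 2.19, 47.5 ± 0.92 and 46.3 ± 1.61 after 3, 24 and 72 h, and in all other cells it was 10.6 ± 0.27, 9.36 ± 0.43, 10.4 ± 0.45 and 9.27 ± 0.24. The threshold cuts a range and not a cell type, and 287 control cells had 20 to 29 member UMIs. Without thinning, members made up 0.537% ± 0.020 of all UMIs in control and 0.403% ± 0.014, 0.458% ± 0.008 and 0.414% ± 0.008 after 3, 24 and 72 h.

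By lineage, the share of cells above the threshold was highest in erythroid progenitor-like cells, with 60.9% ± 6.88 (SD, n = 3) in control and 41.4% ± 10.2, 50.4% ± 5.61 and 51.9% ± 5.32 after 3, 24 and 72 h (n = 4 each). In LMPP-like cells it was 32.9% ± 3.45 (n = 3) in control and 20.6% ± 5.96, 27.2% ± 4.62 and 26.1% ± 5.86 later. Myeloid progenitor-like cells lay at 35.4% ± 1.60 in control and 25.2% ± 8.42, 27.0% ± 4.85 and 27.0% ± 3.89 later. HSC-like cells had the lowest shares, with 13.5%, 19.1%, 18.8% and 0.0% in the 4 control mice, of which the last rests on 14 cells. After IFNα the means were 11.3% ± 0.79, 14.2% ± 1.37 and 9.97% ± 2.79 at 3, 24 and 72 h. Those at 3 and 72 h lay below every control mouse except the one with 14 cells. The mean at 24 h lay among the other control mice. MK progenitor-like cells went from 26.2% ± 1.40 (n = 3) in control to 30.6% ± 2.89, 27.2% ± 5.34 and 22.2% ± 3.74, and these groups overlapped.

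**Figure D5:**
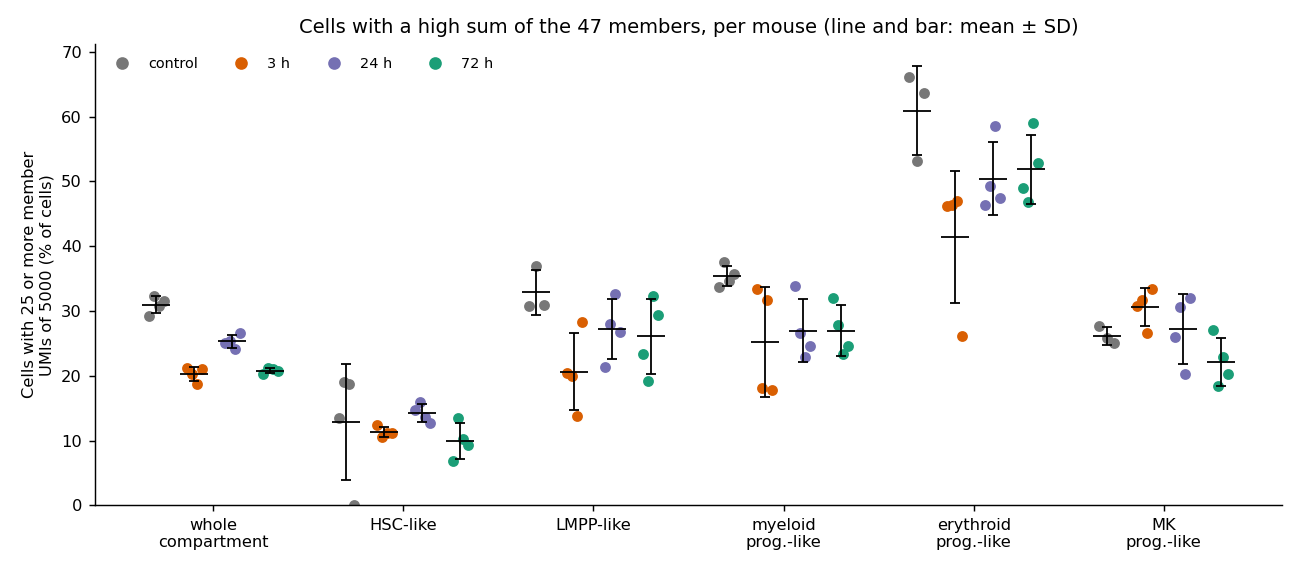
Percent of cells with at least 25 member UMIs of 5000 in each mouse, by cell group and time point, with mean ± SD. In the whole compartment each control mouse (29.3% to 32.3%) lies above each treated mouse. The HSC-like control mice range from 0.0% (control mouse 4, with 14 HSC-like cells) to 19.1%.

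The makeup of the member UMIs within cells above the threshold also moved. Ube2c gave 4.53% ± 0.61 (SD, n = 4) of the member UMIs there in control and 3.28% ± 0.47, 3.35% ± 0.28 and 2.88% ± 0.37 after 3, 24 and 72 h. Hmgb2 gave 22.0% ± 0.98 in control and 26.2% ± 1.10, 24.1% ± 0.29 and 24.6% ± 0.94 after IFNα, so its part grew where that of Ube2c shrank. These are parts of 1 sum, so a member that falls less than the others gains a larger part without rising. The cells were also chosen by the sum of these same members, and how far that choice shaped the parts was not tested. In the whole compartment the log2 fold change of Hmgb2 was -0.003, -0.035 and -0.20. Of single genes, at least 1 UMI of Mki67 was found in 26.6% ± 1.83 of cells in control and 17.2% ± 1.87, 21.2% ± 1.60 and 19.4% ± 1.17 after IFNα, and of Cdc20 in 18.7% ± 2.45, 11.6% ± 1.52, 16.4% ± 1.08 and 14.5% ± 1.05. No cell class here lacks these genes, so the share that free RNA gives was not measured.

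Genes of the same phases outside the list mostly moved with it. They too were listed with earlier results of these data known, so they are not an independent list. Of 90 other G2/M genes, 46 were lower and 7 higher at 3 h in the whole compartment, 46 and 2 at 24 h, and 68 and 2 at 72 h. The lower shares were 51.1%, 51.1% and 75.6%, beside 19.2%, 13.8% and 18.5% of all genes. The higher shares were 7.78%, 2.22% and 2.22%, beside 19.7%, 14.5% and 18.9%. The medians were -0.27, -0.23 and -0.35. Plk1, the polo kinase of mitotic entry, fell by 1.03 ± 0.10 at 3 h (adjusted p = 2.5e-08), and Cdc25b, a CDK-activating phosphatase, fell by 0.98 ± 0.17 (9.2e-05). Under library size alone, 67 were lower and 3 higher at 3 h, beside 4632 and 1591 of all 12042 genes. A few went against the rest at 3 h: Pttg1, the securin that holds separase, rose by 1.21 ± 0.05 (5.5e-15), and Cenpw, a centromere subunit, rose by 0.69 ± 0.05 (9.9e-11). Pttg1 and Cenpw were also higher at 3 h in each of the 5 lineages, Pttg1 by 1.43 in HSC-like, 0.98 in LMPP-like, 0.76 in myeloid, 1.42 in erythroid and 1.43 in MK progenitor-like cells. In that order, 12.9%, 10.6%, 14.4%, 8.91% and 8.55% of all genes were higher in the single lineages. The share of genes higher in all 5 was not counted. Pttg1 and Cenpw remained higher at 24 h in the whole compartment, by 0.21 and 0.29, and at 72 h Cenpw was higher by 0.16.

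Of 15 regulators that act on the promoters of these genes, 3 were lower and 2 higher at 3 h in the whole compartment, 3 were lower at 24 h and 4 at 72 h. These are shares of 20.0%, 20.0% and 26.7% lower and 13.3% higher at 3 h, beside 19.2%, 13.8% and 18.5% lower and 19.7% higher among all genes, so that the regulators as a list stayed near all genes at 3 h. Under library size alone, 11 were lower and 2 higher at 3 h, beside 4632 and 1591 of all 12042 genes. Foxm1, an activator of G2/M genes, fell by 0.78 ± 0.16 at 3 h (adjusted p = 0.00049), 0.50 ± 0.12 at 24 h and 0.78 ± 0.14 at 72 h. Mybl2, the B-Myb subunit that works with MuvB, fell by 0.39, 0.36 and 0.72. At 3 h the MuvB subunit Lin9 and the pocket protein gene Rbl1 were higher, by 0.40 and 0.36.

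Genes of S phase, in which DNA is copied, were mixed at 3 h. Of 49 S phase genes, 12 were higher (24.5%) and 7 lower (14.3%) in the whole compartment, near the 19.7% and 19.2% of all genes. Their median was 0.01. This split turned with the scaling, to 7 higher and 25 lower with library size alone, beside 1591 and 4632 of all 12042 genes. At 24 h 2 were higher (4.08%, beside 14.5% of all genes) and 11 lower (22.4%, beside 13.8%). At 72 h 2 were higher (4.08%, beside 18.9% of all genes) and 22 lower (44.9%, beside 18.5%). In HSC-like cells 15 were higher (30.6%, beside 12.9% of all genes) and 0 lower (8.54% of all genes) at 3 h, among them Hells, a chromatin remodeler (1.36 ± 0.12, adjusted p = 1.5e-10), and Ccne2, a cyclin of S phase entry (1.00 ± 0.25, 0.00338). With library size alone 6 S phase genes were higher and 2 lower there, beside 877 and 2799 of all 10358 genes. With clusters from all variable genes 28 were higher and 1 lower, beside 13.1% and 7.01% of all genes. S phase genes could take part in drawing those clusters, so these last counts are a description only. With clusters built without cell cycle genes, 7 were higher (14.3%, beside 8.55%) and 0 lower (2.99%) in MK progenitor-like cells at 3 h. The medians were 0.24 in HSC-like and 0.23 in MK progenitor-like cells. In LMPP-like, myeloid and erythroid progenitor-like cells 5, 5 and 3 were higher (10.2%, 10.2% and 6.12%, beside 10.6%, 14.4% and 8.91%). There 3, 2 and 1 were lower (6.12%, 4.08% and 2.04%, beside 6.38%, 8.72% and 3.95%). At 72 h Pcna, the sliding clamp of DNA replication, was lower in the whole compartment by 0.65 ± 0.06 (adjusted p = 1.22e-08) and in all 5 lineages, of which the call in HSC-like cells (-0.43 ± 0.11, adjusted p = 0.0155) was lost with clusters from all variable genes, where 0 S phase genes were lower.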

How the data were processed

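Deposited counts of UMIs per gene and cell were used as the authors made them (Cell Ranger 3.1.0 and mm10 per the labels, hashtag calls by the authors). The members and all gene lists were chosen with earlier results of these data known. Deposited hashtag margin scores of the authors' demultiplexing (Seurat) were not used. Cells called Doublet or Negative, with over 5% mitochondrial UMIs or under 700 genes were left out. Doublets were otherwise kept, and removing the highest Scrublet scores was an alternative.

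Lineages came from Leiden clusters of control cells (scanpy 1.11.5; 500 variable genes, 10 components, resolution 0.8, cell cycle genes left out), named by marker lists and transferred to treated cells by corrected neighbors. Counts were summed per mouse and lineage (at least 10 cells) and tested with edgeR 4.0.16 (R 4.3.3; filterByExpr, TMM factors, quasi-likelihood, all mice in 1 fit, SE from the F statistic). CPM are TMM-scaled. Differences between lineages used limma 3.58.1 on log2 CPM (prior count 2). Per-mouse values were given for a fixed list of 10 members and, in lineages, for some of the up to 3 lowest or highest called members. The 10 included no member of the spindle and microtubule, cytokinesis or nuclear envelope groups. The other G2/M genes, up to 2 per direction, were given as log2 fold changes only. Scripts were tested on simulated data with 200 changed genes. Alternatives are given in the closing section, with DESeq2 1.42.0 among them. Whether each mouse was a separate animal is as the labels say. No count column was left unused.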

Additional observations from a re-analysis of the deposited data

Results flagged for a closer look

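Of 82 groups of 4 mice checked for a mouse far from the others, 4 held one, and chance alone marks about 1 in 20 groups. Hmgb2 in the whole compartment at 24 h was highest in mouse 4 (1214 CPM, against at most 1148 in the other mice). Cenpa in the whole compartment at 72 h was lowest in mouse 4 (112 CPM, against at least 121). In erythroid progenitor-like cells at 3 h, mouse 4 had the lowest share of UMIs from members (0.454%) and the lowest share of cells with at least 25 member UMIs (26.1%).

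The response of 2 members differed between lineages in the test of the difference itself. At 3 h, the change of Ube2c was more positive in HSC-like than in LMPP-like cells by 1.20 on the log2 scale, and that of Tubb4b by 0.45. Both calls were lost without control mouse 1, control mouse 2 or 3 h mouse 2.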

How the results depend on the processing

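In the whole compartment, the number of lower members stayed within 1.5 times at 3 and 72 h under every alternative run, and at 24 h under all but thinning every cell to 5000 UMIs, which left 15 and which also left 0 lower at 24 h against 3 h. Thinning removes most UMIs, and 29 to 41 members passed the filter in lineages. There it left 1 lower member at 24 h and 16 at 72 h in HSC-like cells, 13, 9 and 9 at 3, 24 and 72 h in LMPP-like cells, 6, 9 and 6 in myeloid, 3, 1 and 1 in erythroid and 0, 0 and 5 in MK progenitor-like cells, where 1 was higher at 3 h. With library size alone, 29 were lower in HSC-like cells at 3 h and 22 and 7 in erythroid progenitor-like cells at 3 and 72 h, 31 were higher at 24 h than at 3 h in the whole compartment, and the median moved to -0.58 at 3 h in the whole compartment and to -0.11 at 3 h in MK progenitor-like cells. All genes called lower at 3 h also rose with library size alone, to 4632 in the whole compartment, 2799 in HSC-like and 1427 in erythroid progenitor-like cells. Without a filter on low counts, 20 and 6 members were lower in HSC-like cells at 3 and 24 h, and 16 and 8 in erythroid progenitor-like cells at 3 and 72 h. DESeq2 called 5, 0 and 8 members lower in HSC-like cells at 3, 24 and 72 h, beside 476, 90 and 134 of all genes. In MK progenitor-like cells it called 1 and 2 lower at 3 and 24 h, beside 136 and 53 of all genes. With only 2 time points in the fit, 1 was lower in HSC-like cells at 24 h. The causes of the shifts under library size, filter and DESeq2 were not tested. No counts over all genes are given for thinning, the filter, 2 time points, label transfer, left-out clusters or left-out mice. Those member counts are thus not set against all genes.

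With clusters from all variable genes, which the members helped to draw, 1, 0 and 0 of the 40 members tested were lower in HSC-like cells and the medians were 0.33, 0.14 and 0.0698, while Mki67 stood at 0.22 at 3 h and 0.0032 at 24 h and Dlgap5 at 0.41 at 3 h. The same clusters left 0, 0 and 1 of 43 lower and 1 higher (at 3 h) in MK progenitor-like cells. Label transfer without interferon-stimulated genes left 0 lower in MK progenitor-like cells at 3 h, and transfer without correction left 1 higher and a median of -0.0803. Chosen after seeing the data, leaving out cluster 10 left 1 lower in HSC-like cells at 24 h, leaving out cluster 9 moved no count of lower members in myeloid progenitor-like cells by over 1.5 times, and a mouse was left out in turn from the differences between lineages. With fixed lineage weights the whole-compartment median at 3 h was -0.54, and on the same scale it was -0.55 for the cells as sorted.

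Leaving out 1 mouse at a time gave 2 to 19 lower members at 3 h, 0 to 6 at 24 h and 6 to 34 at 72 h in HSC-like cells, 17 to 35, 11 to 25 and 10 to 25 in LMPP-like cells, 6 to 15 at 24 h and 1 to 5 at 72 h in erythroid and 0 to 2 at 3 h and 1 to 4 at 24 h in MK progenitor-like cells. In the whole compartment, 8 to 15 were higher at 24 h than at 3 h and 9 to 19 lower at 72 h than at 24 h. The median ranged from -0.37 to 0.0672 in HSC-like cells at 24 h and from -0.0197 to 0.13 in MK progenitor-like cells at 3 h. Members whose change differed between HSC-like and LMPP-like cells numbered 0 to 4 at 3 h (1 with a prior count of 0.5) and 0 to 2 at 24 h, those against myeloid cells 0 to 1 at 72 h, and those against erythroid cells 0 to 1 at each of 3, 24 and 72 h.

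The share of cells rich in member UMIs, as a ratio to control, was 0.754, 0.905 and 0.715 at 3, 24 and 72 h in the whole compartment with a threshold of 15 UMIs and 0.530, 0.763 and 0.637 with 40, and as the unthinned share of UMIs 0.749 at 3 h and 0.770 at 72 h. With 40 it was 0.427, 0.554 and 0.537 in LMPP-like cells, 0.177, 0.571 and 0.524 in myeloid progenitor-like cells, 0.400 at 3 h and 0.667 at 24 h in erythroid and 0.988 at 3 h in MK progenitor-like cells. With 15 it was 0.961 in erythroid cells at 24 h, and in MK cells at 3 h it was 1.32 when thinned to 3000 UMIs and 0.982 unthinned. Of the fold changes of single named genes, 1740 stayed on their side of the threshold, 144 lost the call, 6 gained it and 3 reversed. A reversal was counted only where the main or the alternative value was called, so uncalled values among the 1740 may have changed direction.

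No paired analysis was possible because a hashtag number names an antibody and not an animal, litter or day shared between time points. Time point and library cannot be told apart, and at the depth of a lineage a change that was not called is not shown to be absent.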
